A study of Mus musculus with 12 samples.

Results

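The genes described here are 41 ribosome biogenesis factors, the proteins that transcribe, modify, cleave and assemble ribosomal RNA (rRNA) on its way to finished ribosomes. They were taken by gene symbol from a list of factors of nucleolar rRNA processing, small nucleolar ribonucleoproteins (snoRNPs), RNA polymerase I and ribosome assembly. The rule used no measured value, but the 41 genes were chosen with earlier results of these data known. All 41 were found among the 55487 genes of the table. All 41 also passed the filter on low values, set at a CPM (reads per 1000000 reads counted) of 1 or more in 3 or more of 12 libraries, under which 14202 genes were kept. By role they comprised 4 box C/D snoRNP proteins, 4 H/ACA snoRNP proteins, 4 factors of RNA polymerase I, 5 abundant nucleolar proteins and chaperones, 14 factors of the small subunit and 10 of the large subunit.

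Messenger RNA was sequenced from primary vascular smooth muscle cells (VSMC) of the mouse, in 4 groups of 3 libraries each. The groups were cells labelled TIGAR knockout with PDGF-BB, cells labelled TIGAR knockout without PDGF-BB, wild-type (WT) cells with PDGF-BB and WT cells without PDGF-BB. Donor mice were 4 to 6 weeks old for all groups, and the cells were grown in DMEM/F12 medium with fetal bovine serum and penicillin-streptomycin, and were used at passages 4 to 6. PDGF-BB, a growth factor that makes smooth muscle cells divide and migrate, was given at 40 µg/L for 6 h. TIGAR is a fructose bisphosphatase that slows glycolysis, and the study set its loss against WT cells under PDGF-BB. The labels name the tissue only as vascular, give neither strain nor the knockout allele, and leave unsaid whether replicate libraries trace to different mice or dishes. The p-values therefore rest on the scatter among these samples, which may be technical.

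Libraries labelled knockout showed no loss of Tigar mRNA. It stood at 14.6, 14.7 and 16.2 CPM in labelled knockout cells with PDGF-BB against 11.5, 11.5 and 12.6 CPM in WT cells with PDGF-BB, and at 10.0, 12.2 and 11.3 CPM in untreated labelled knockout cells against 6.99, 8.61 and 6.91 CPM in untreated WT cells. Every direction between genotypes below is therefore by label. Library totals ranged from 14953807 to 21698488 reads, so that 1 read was worth at most 0.0669 CPM. Replicate 1 of WT cells with PDGF-BB differed most from its group: its root mean square deviation from its fellow replicates was 0.416 on the log2 scale, and that of the remaining 11 libraries was 0.143 to 0.293. Outside the treated WT group the largest deviation was 0.238, in replicate 1 of untreated labelled knockout cells. Smooth muscle markers were present in all libraries, with summed levels of 2859 to 6009 CPM over 10 markers.

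Ribosome production starts in the nucleolus, where RNA polymerase I transcribes a long rRNA precursor. The box C/D snoRNPs methylate it, the H/ACA snoRNPs turn chosen uridines into pseudouridines, and the small subunit processome and large subunit assembly factors cleave, fold and package it with ribosomal proteins. Growth factors are known to raise ribosome production in cells that enter the cycle, and MYC is a well known activator of many of these genes.

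The first question was what 6 h of PDGF-BB did to these genes under each genotype label. In labelled knockout cells 39 of the 41 rose and none fell, while 17.6% of all genes kept were called higher and 24.8% lower. In WT cells 40 of the 41 rose and none fell, while 25.0% of all genes kept were called higher and 34.4% lower. The median log2 change was 0.75 over the 41 genes in labelled knockout cells and 1.15 in WT cells, against -0.07 and -0.08 over all genes kept. Each log2 change here is on the log2(CPM + 1) scale from 1 limma fit of all libraries, a gene was called at an adjusted p under 0.05, and SE is the standard error of that fit. In bulk RNA a change in the number of cells of a type and a change in RNA per cell cannot be told apart.

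Rises of at least 2-fold were found for 11 of the 41 genes in labelled knockout cells, where 1.86% of all genes rose so far, and for 23 in WT cells, where 3.72% did. The log2 changes ran from -0.13 for Nop10 to 1.34 for Rrp12 in labelled knockout cells, and from -0.00 for Nop10 to 1.92 for Nop56 in WT cells. As ratios of mean CPM, treated over untreated, these ranges were 0.907 to 2.67 with a median of 1.70 in labelled knockout cells, and 1.03 to 3.96 with a median of 2.32 in WT cells. Without replicate 1 of WT cells with PDGF-BB, the WT log2 changes ran from -0.23 for Nop10 to 1.89 for Rrp12. The 3 treated libraries lay wholly above the 3 untreated ones for 40 genes under either label, while this held for 27.3% of all genes in labelled knockout cells and for 25.9% in WT cells. Nop10 was the exception both times.

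**Figure D1:**
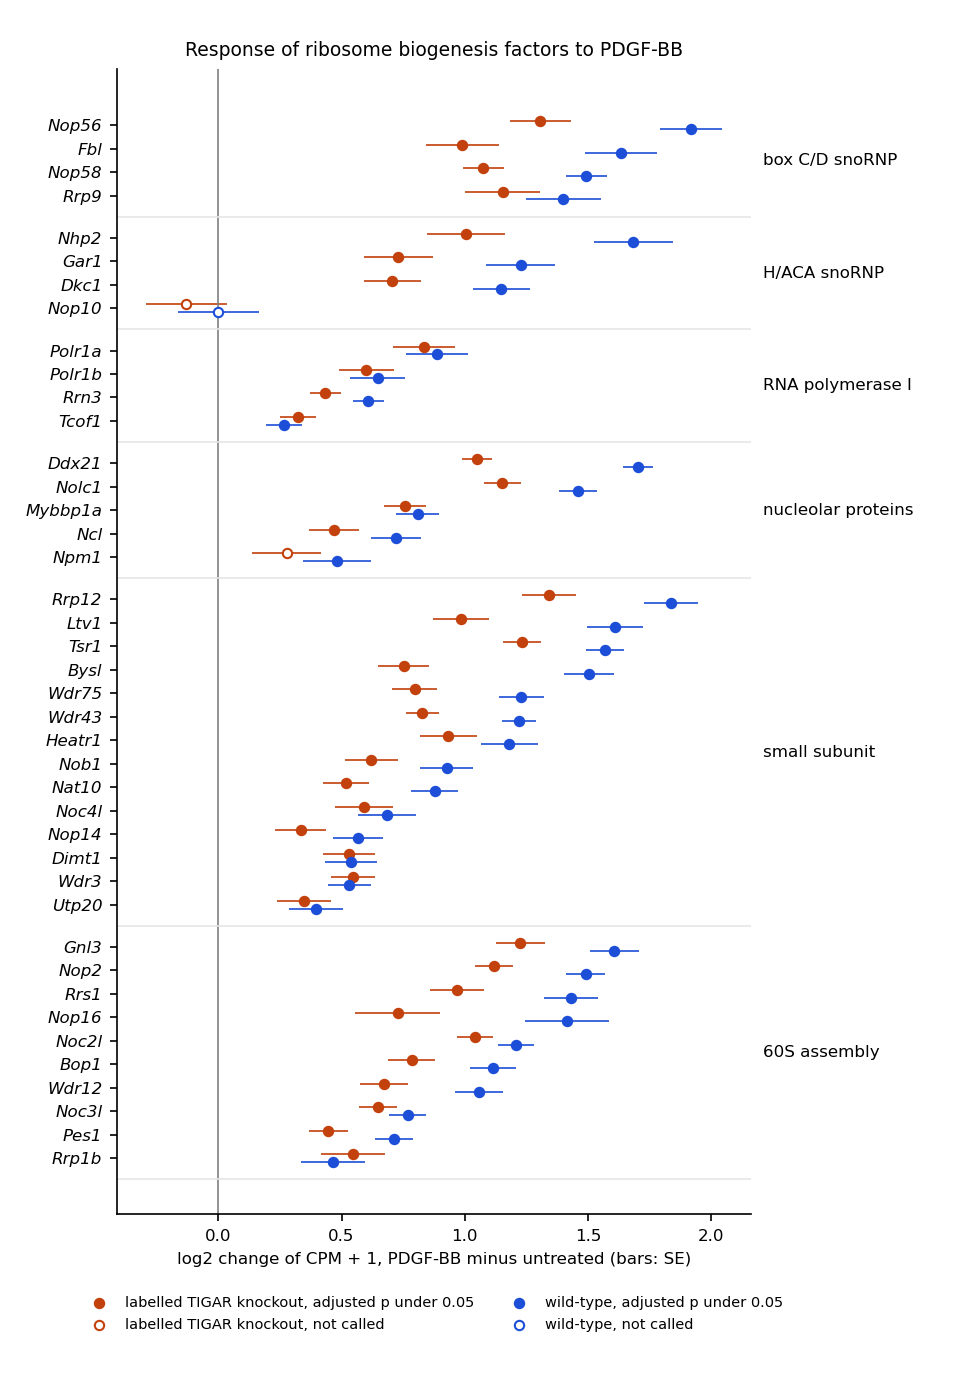
Log2 change of CPM + 1 with PDGF-BB for each of the 41 genes, grouped by role, with labelled knockout cells (orange) drawn above WT cells (blue), bars giving the SE and open points changes that were not called. Points lie right of 0 for 40 genes under both labels, Nop56 reaches 1.92 in WT cells, and Nop10 lies at -0.13 in labelled knockout and -0.00 in WT cells.

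Together the 41 genes held 2639, 2534 and 2675 CPM in labelled knockout cells with PDGF-BB, against 1606, 1626 and 1639 CPM in untreated labelled knockout cells. In WT cells they held 3915, 3355 and 3178 CPM with PDGF-BB against 1738, 1808 and 1785 CPM untreated. The treated libraries thus lay above the untreated ones under both labels, and the 3 treated WT libraries lay above the 3 treated labelled knockout ones.

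Because these genes moved together, their promoters were read from the RefSeq promoter table of GRCm38.p6, the build of the deposited table, as windows of 300 bases from 250 before to 50 after the start RefSeq annotates. Windows were found for 35 of the 41 genes; Fbl, Tcof1, Npm1, Rrp12, Bop1 and Rrs1 had none. Both strands were searched for CACGTG, the E-box that MYC and MAX are known to bind, for CGGAAG, the core of sites of the ETS family, and for a palindrome of the factor NRF1, none of which is contained in another. CGGAAG was in the windows of 19 of the 35 genes (54.3%), against 34.4% of 10427 kept genes with a window and 18.8% of all 27025 genes with one. CACGTG was in those of 8 (22.9%), against 11.5% of kept genes and 8.09% of all, and the NRF1 palindrome was in none of the 35, against 2.23% of kept genes. Both CGGAAG and CACGTG stood in 6 windows, those of Ltv1, Mybbp1a, Nop2, Rrn3, Tsr1 and Utp20.

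The 90 bases before the start are shown for 5 genes with contrasting responses, 5′ to 3′ on the gene's strand, with the E-box CACGTG, the ETS core CGGAAG and the reverse complement of that core in capitals. With all libraries, Nop56 and Nop10 had the highest and the lowest WT response. Gar1 is a partner of Nop10 in the H/ACA particle, Ddx21 differed in response between the labels, and Nop2 has both motifs.
Nop56 (chr2:130274322-130274411, plus strand): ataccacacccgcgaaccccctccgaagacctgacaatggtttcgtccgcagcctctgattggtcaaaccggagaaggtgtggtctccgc
Nop10 (chr2:112261836-112261925, plus strand): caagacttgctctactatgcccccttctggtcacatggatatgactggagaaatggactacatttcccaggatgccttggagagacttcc
Gar1 (chr3:129831397-129831486, minus strand): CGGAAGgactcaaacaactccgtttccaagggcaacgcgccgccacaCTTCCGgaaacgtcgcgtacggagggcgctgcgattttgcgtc
Ddx21 (chr10:62602299-62602388, minus strand): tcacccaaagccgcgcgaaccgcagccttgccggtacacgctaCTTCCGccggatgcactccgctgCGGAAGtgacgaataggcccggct
Nop2 (chr6:125131793-125131882, plus strand): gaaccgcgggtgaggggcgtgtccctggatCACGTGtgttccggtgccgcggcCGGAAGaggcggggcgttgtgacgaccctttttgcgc

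The stretch of Nop56 held neither motif, nor did the rest of its window. Nop56 had the largest WT response in the fit of all libraries. Without replicate 1 of WT cells with PDGF-BB, Rrp12 led at 1.89 and Nop56 stood at 1.74. The one CGGAAG of Nop10 ran across the annotated start and so is not in its stretch. Among the 35 genes, the 19 with CGGAAG had a median log2 response of 0.80 in labelled knockout and 1.21 in WT cells, and the 16 without it 0.66 in labelled knockout and 0.91 in WT cells. The 8 genes with CACGTG had medians of 0.79 in labelled knockout and 1.01 in WT cells, and the 27 without it 0.73 in labelled knockout and 1.15 in WT cells. These matches are letters in a window, and no binding was measured.

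The box C/D proteins gave the highest role median, 1.11 in labelled knockout and 1.56 in WT cells, and all 4 rose under both labels. Nop56 (ENSMUSG00000027405, chr2:130274430-130279313, plus strand), a scaffold of the particle, had 68.2, 60.1 and 70.7 CPM with PDGF-BB against 27.9, 25.4 and 25.2 CPM untreated in labelled knockout cells. Its WT values were 122.5, 87.9 and 80.4 CPM with PDGF-BB against 24.8, 25.1 and 23.6 CPM untreated. The treated and untreated libraries were far apart in both, with log2 changes of 1.31 (SE 0.12, adjusted p = 3.51e-06) in labelled knockout and 1.92 (SE 0.12, adjusted p = 4.49e-08) in WT cells. Nop58, the paired scaffold, had 75.5, 71.1 and 80.3 CPM with PDGF-BB against 34.9, 35.04 and 36.1 CPM untreated in labelled knockout cells. WT cells had 125.4, 105.7 and 99.6 CPM with PDGF-BB against 36.99, 37.9 and 40.2 CPM untreated for Nop58, and its changes were 1.07 and 1.49 in labelled knockout and WT cells.

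Fbl (ENSMUSG00000046865, chr7:28169710-28179269, plus strand), the fibrillarin that transfers the methyl group, had 41.5, 37.4 and 42.2 CPM with PDGF-BB against 19.5, 20.1 and 19.9 CPM untreated in labelled knockout cells. Fbl in WT cells had 93.7, 57.96 and 56.5 CPM with PDGF-BB against 21.4, 22.3 and 19.7 CPM untreated, with replicate 1 far above the other 2 treated libraries. Its log2 changes were 0.99 (SE 0.15, adjusted p = 1.48e-04) in labelled knockout and 1.63 (SE 0.15, adjusted p = 9.02e-07) in WT cells. Rrp9, a protein specific to the U3 snoRNP that guides early cleavages, had 26.1, 23.7 and 25.6 CPM with PDGF-BB against 9.29, 10.9 and 12.2 CPM untreated in labelled knockout cells. Rrp9 in WT cells had 44.2, 30.8 and 26.1 CPM with PDGF-BB against 11.3, 11.8 and 12.5 CPM untreated, and it changed by 1.15 in labelled knockout and 1.40 in WT cells. No treated library of these 4 genes overlapped an untreated one under the same label.

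Of the H/ACA proteins 3 rose and 1 did not, under either label. Dkc1, the dyskerin that makes the pseudouridine, had 22.4, 18.5 and 23.2 CPM with PDGF-BB against 12.6, 13.04 and 12.3 CPM untreated in labelled knockout cells. Dkc1 in WT cells had 37.2, 31.8 and 27.3 CPM with PDGF-BB against 14.3, 12.6 and 14.6 CPM untreated. It rose by 0.71 in labelled knockout and 1.15 in WT cells, with no overlap between treated and untreated libraries. Gar1, which helps release the modified RNA, had 22.3, 22.2 and 22.1 CPM with PDGF-BB against 14.7, 12.3 and 12.2 CPM untreated in labelled knockout and 39.3, 26.7 and 26.4 CPM with PDGF-BB against 11.03, 12.1 and 14.1 CPM untreated in WT cells. Nhp2, which binds the guide RNA, had 31.9, 29.8 and 35.5 CPM with PDGF-BB against 15.3, 16.3 and 15.3 CPM untreated in labelled knockout cells. Nhp2 in WT cells had 62.3, 38.8 and 34.9 CPM with PDGF-BB against 12.9, 13.03 and 12.9 CPM untreated, and its treated replicate 1 was the highest. Gar1 rose by 0.73 and 1.23, and Nhp2 by 1.00 and 1.68, in labelled knockout and WT cells.

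Nop10 (ENSMUSG00000027133, chr2:112261926-112263269, plus strand), the small protein that holds dyskerin and Nhp2 together, was the only member called under neither label. It had 17.5, 17.8 and 15.8 CPM with PDGF-BB against 21.1, 17.8 and 17.4 CPM untreated in labelled knockout cells. Nop10 in WT cells had 25.4, 17.5 and 13.7 CPM with PDGF-BB against 17.1, 18.7 and 19.1 CPM untreated. Treated and untreated libraries overlapped in both, and the changes were -0.13 (SE 0.16, adjusted p = 0.553) in labelled knockout and -0.00 (SE 0.16, adjusted p = 0.998) in WT cells. The WT mean was 18.9 ± 6.00 CPM with PDGF-BB (SD, n = 3), with replicate 1 the highest, and without that library the WT change was -0.23 (adjusted p = 0.0774). Per kilobase of exon, the mean level of Nop10 was 15.4 CPM with PDGF-BB and 16.9 CPM untreated in labelled knockout cells, and that of Dkc1 was 7.63 and 4.52 CPM. In WT cells the per-kilobase level was 17.03 CPM with PDGF-BB and 16.5 CPM untreated for Nop10, and 11.4 and 4.94 CPM for Dkc1.

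**Figure D2:**
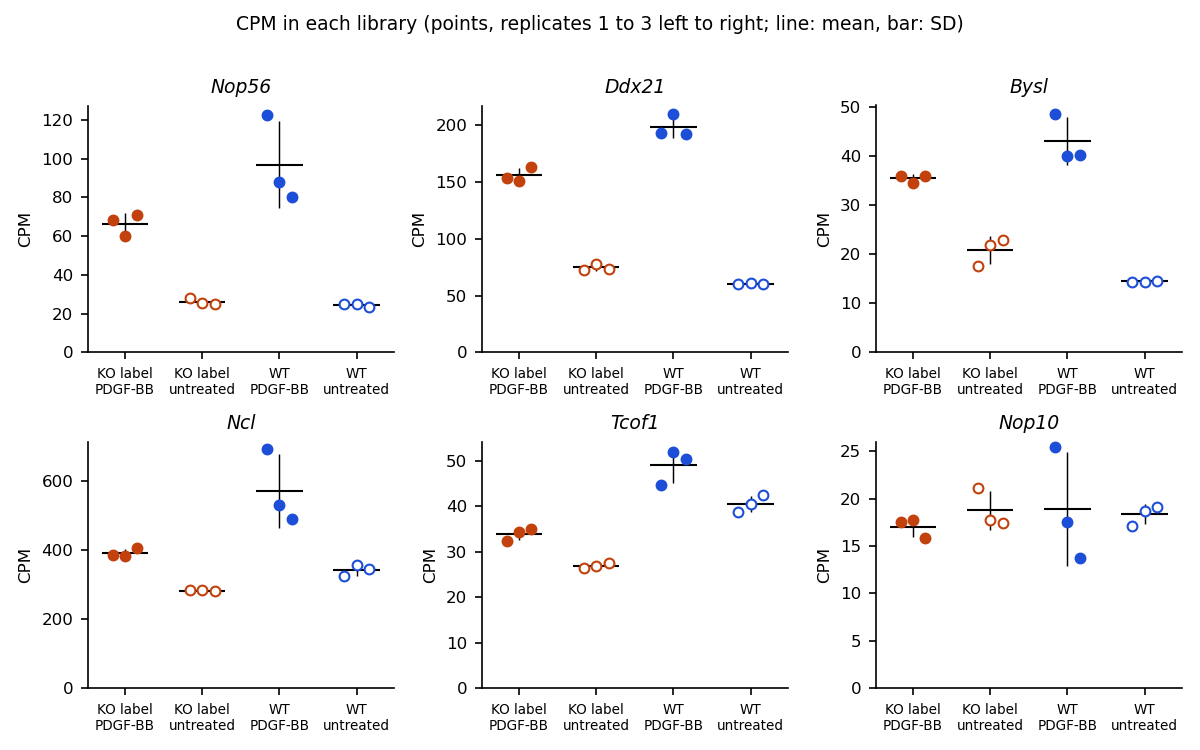
CPM of 6 of the genes in each library, with points for replicates 1 to 3 from left to right, a line at the mean and a bar for the SD (n = 3 per group), in the order labelled knockout with PDGF-BB, labelled knockout untreated, WT with PDGF-BB and WT untreated. Treated points lie above untreated ones for Nop56, Ddx21, Bysl, Ncl and Tcof1 under both labels, treated and untreated points of Nop10 overlap, and replicate 1 of the treated WT group is the highest of its group for Nop56, Bysl, Ncl and Nop10.

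The 4 RNA polymerase I factors all rose, but none by 2-fold, with role medians of 0.52 in labelled knockout and 0.63 in WT cells. Polr1a, the largest subunit of the enzyme, had 63.9, 61.8 and 66.7 CPM with PDGF-BB against 35.9, 33.3 and 37.4 CPM untreated in labelled knockout cells. Polr1a in WT cells had 52.7, 75.97 and 79.1 CPM with PDGF-BB against 40.1, 35.2 and 34.1 CPM untreated, with treated replicate 1 the lowest of the 3. Polr1b, the other large catalytic subunit, had 18.8, 16.5 and 17.6 CPM with PDGF-BB against 12.6, 11.4 and 10.01 CPM untreated in labelled knockout cells. Polr1b in WT cells had 21.9, 27.1 and 24.8 CPM with PDGF-BB against 17.1, 14.97 and 14.0 CPM untreated. Polr1a rose by 0.84 and 0.89 and Polr1b by 0.60 and 0.65 in labelled knockout and WT cells, with no overlap between treated and untreated libraries.

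Rrn3, the initiation factor whose activity growth signals are known to control, had 71.1, 72.7 and 72.3 CPM with PDGF-BB against 49.99, 56.98 and 52.4 CPM untreated in labelled knockout cells. Rrn3 in WT cells had 72.5, 72.2 and 75.7 CPM with PDGF-BB against 48.3, 47.7 and 47.7 CPM untreated, and its changes were 0.43 (SE 0.063, adjusted p = 1.18e-04) in labelled knockout and 0.61 (SE 0.063, adjusted p = 3.15e-06) in WT cells. Tcof1 (ENSMUSG00000024613, chr18:60813755-60848971, minus strand) encodes treacle, a nucleolar scaffold for the polymerase, and had 32.4, 34.4 and 35.05 CPM with PDGF-BB against 26.4, 26.9 and 27.5 CPM untreated in labelled knockout cells. Tcof1 in WT cells had 44.7, 51.98 and 50.5 CPM with PDGF-BB against 38.8, 40.5 and 42.4 CPM untreated. Its rises of 0.32 (SE 0.074, adjusted p = 0.00340) in labelled knockout and 0.27 (SE 0.074, adjusted p = 0.00740) in WT cells were among the 3 lowest changes under each label.

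Among the nucleolar proteins Ddx21 and Nolc1 rose over 2-fold under both labels, while the 2 most abundant transcripts rose least. Ddx21 (ENSMUSG00000020075, chr10:62580251-62602281, minus strand), an RNA helicase that acts in rRNA transcription and processing, had 153.8, 151.3 and 163.7 CPM with PDGF-BB against 72.8, 78.2 and 73.8 CPM untreated in labelled knockout cells. Ddx21 in WT cells had 193.4, 210.0 and 192.3 CPM with PDGF-BB against 59.99, 60.8 and 59.9 CPM untreated, and the changes were 1.05 (SE 0.061, adjusted p = 6.62e-08) in labelled knockout and 1.70 (SE 0.061, adjusted p = 4.08e-10) in WT cells. Nolc1, a chaperone of snoRNPs, had 77.1, 72.3 and 84.1 CPM with PDGF-BB against 34.5, 32.8 and 35.98 CPM untreated in labelled knockout cells. Nolc1 in WT cells had 105.6, 99.1 and 91.1 CPM with PDGF-BB against 35.5, 35.3 and 34.6 CPM untreated. It rose by 1.15 in labelled knockout and 1.46 in WT cells, with wide gaps between treated and untreated libraries. Mybbp1a, a nucleolar MYB-binding protein, had 173.3, 160.2 and 169.7 CPM with PDGF-BB against 99.5, 95.4 and 101.4 CPM untreated in labelled knockout cells. Mybbp1a in WT cells had 164.4, 210.2 and 206.7 CPM with PDGF-BB against 107.2, 115.3 and 106.3 CPM untreated, and it rose by 0.76 in labelled knockout and 0.81 in WT cells.

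Ncl, the nucleolin that coats new rRNA, had 384.5, 384.0 and 406.1 CPM with PDGF-BB against 283.9, 283.5 and 281.2 CPM untreated in labelled knockout cells. Ncl in WT cells had 693.3, 529.1 and 490.1 CPM with PDGF-BB against 324.2, 357.4 and 344.0 CPM untreated. The groups did not overlap, and the changes were 0.47 (SE 0.10, adjusted p = 0.00233) in labelled knockout and 0.72 (SE 0.10, adjusted p = 4.58e-05) in WT cells. Npm1, the nucleophosmin of the granular nucleolus, had 340.2, 315.9 and 342.6 CPM with PDGF-BB against 260.3, 280.9 and 282.5 CPM untreated in labelled knockout cells. Npm1 in WT cells had 636.9, 424.9 and 378.7 CPM with PDGF-BB against 321.1, 341.0 and 342.4 CPM untreated. Its treated libraries lay above the untreated ones under both labels, but the change was called in WT cells, at 0.48 (SE 0.14, adjusted p = 0.00899), and not in labelled knockout cells, at 0.28 (SE 0.14, adjusted p = 0.126). Without replicate 1 of WT cells with PDGF-BB, which enters this change only through the shared estimate of the spread, the labelled knockout change of Npm1 was 0.28 (adjusted p = 1.63e-04). The WT change without that library was 0.26 (adjusted p = 6.74e-04). The genome holds processed copies of Npm1, and how reads with several matches were counted is not given in the sources used here, so its level is uncertain.

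All 14 small subunit factors rose under both labels, by a median of 0.69 in labelled knockout and 1.05 in WT cells, and for none of them did a treated library overlap an untreated one. The 7 processome proteins ran from 0.33 for Nop14 to 0.93 for Heatr1 in labelled knockout cells, and from 0.40 for Utp20 to 1.23 for Wdr75 in WT cells. Without replicate 1 of WT cells with PDGF-BB, the WT values ran from 0.46 for Nop14 to 1.33 for Heatr1. Utp20, a large scaffold of the processome, had 99.4, 95.4 and 88.3 CPM with PDGF-BB against 76.3, 72.1 and 73.2 CPM untreated in labelled knockout and 84.2, 117.2 and 120.3 CPM with PDGF-BB against 79.6, 78.9 and 82.04 CPM untreated in WT cells. Heatr1, another large scaffold, had 49.6, 43.1 and 43.7 CPM with PDGF-BB against 21.3, 24.4 and 24.3 CPM untreated in labelled knockout and 40.8, 53.4 and 58.8 CPM with PDGF-BB against 21.7, 21.9 and 21.4 CPM untreated in WT cells. Utp20 changed by 0.35 (SE 0.11, adjusted p = 0.0200) in labelled knockout and 0.40 (SE 0.11, adjusted p = 0.00669) in WT cells, and Heatr1 by 0.93 (SE 0.11, adjusted p = 3.17e-05) in labelled knockout and 1.18 (SE 0.11, adjusted p = 1.76e-06) in WT cells. The labelled knockout call of Utp20 was lost without any 1 of 4 labelled knockout libraries (replicates 1 and 2 with PDGF-BB, 2 and 3 untreated), with adjusted p up to 0.0771. Nop14 lost its labelled knockout call without replicate 3 with PDGF-BB, at an adjusted p of 0.0739.

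Wdr43 and the WD-repeat proteins Wdr75 and Wdr3 belong to subcomplexes that bind the precursor early. Wdr43 had 67.7, 67.9 and 68.8 CPM with PDGF-BB against 37.95, 36.98 and 38.9 CPM untreated in labelled knockout and 100.3, 86.9 and 86.3 CPM with PDGF-BB against 38.6, 37.7 and 39.1 CPM untreated in WT cells. Wdr75 had 51.1, 51.5 and 49.4 CPM with PDGF-BB against 28.9, 26.4 and 30.97 CPM untreated in labelled knockout and 74.7, 59.3 and 60.5 CPM with PDGF-BB against 26.4, 26.4 and 28.0 CPM untreated in WT cells. Wdr3 had 28.99, 27.6 and 29.5 CPM with PDGF-BB against 21.7, 16.99 and 19.6 CPM untreated in labelled knockout and 30.9, 31.9 and 33.5 CPM with PDGF-BB against 20.9, 22.8 and 22.1 CPM untreated in WT cells. Wdr43 rose by 0.83 and 1.22, Wdr75 by 0.80 and 1.23, and Wdr3 by 0.55 and 0.53, in labelled knockout and WT cells. Nop14 and Noc4l act as a pair in the processome. Nop14 had 34.4, 33.1 and 36.5 CPM with PDGF-BB against 27.4, 27.1 and 27.4 CPM untreated in labelled knockout and 56.0, 49.6 and 40.8 CPM with PDGF-BB against 30.2, 35.5 and 31.6 CPM untreated in WT cells. Noc4l, a low transcript throughout, had 12.3, 13.5 and 14.2 CPM with PDGF-BB against 8.7, 7.89 and 9.01 CPM untreated in labelled knockout and 18.04, 13.7 and 15.3 CPM with PDGF-BB against 9.77, 10.2 and 8.1 CPM untreated in WT cells. Nop14 rose by 0.33 and 0.57 and Noc4l by 0.59 and 0.68, in labelled knockout and WT cells, both below the median of the 41 genes under either label.

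The late small subunit factors, which ride on the particle to the cytoplasm, held the largest rises of the role. Rrp12 (ENSMUSG00000035049, chr19:41862851-41896173, minus strand), an export factor, had 28.8, 30.1 and 28.4 CPM with PDGF-BB against 10.3, 11.7 and 10.6 CPM untreated in labelled knockout and 33.3, 37.6 and 36.7 CPM with PDGF-BB against 9.33, 11.2 and 7.74 CPM untreated in WT cells. Its changes of 1.34 (SE 0.11, adjusted p = 9.63e-07) in labelled knockout and 1.84 (SE 0.11, adjusted p = 2.47e-08) in WT cells were the highest and the next to highest of the 41. Without replicate 1 of WT cells with PDGF-BB, the WT change of Rrp12 was 1.89, the highest of the 41. Tsr1, a GTPase-like factor, had 57.9, 53.7 and 62.7 CPM with PDGF-BB against 23.6, 23.7 and 25.2 CPM untreated in labelled knockout and 64.4, 70.7 and 65.2 CPM with PDGF-BB against 20.7, 22.3 and 22.5 CPM untreated in WT cells. Ltv1 had 31.5, 28.6 and 29.99 CPM with PDGF-BB against 14.0, 14.5 and 15.5 CPM untreated in labelled knockout and 48.7, 38.1 and 33.8 CPM with PDGF-BB against 12.5, 11.4 and 13.2 CPM untreated in WT cells. Tsr1 rose by 1.23 and 1.57 and Ltv1 by 0.98 and 1.61, in labelled knockout and WT cells.

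Bysl (ENSMUSG00000023988, chr17:47599331-47611492, minus strand), which works beside Ltv1 and Rrp12 on the particle, had 36.04, 34.5 and 35.9 CPM with PDGF-BB against 17.6, 21.8 and 22.97 CPM untreated in labelled knockout and 48.6, 40.1 and 40.3 CPM with PDGF-BB against 14.4, 14.4 and 14.6 CPM untreated in WT cells. The untreated groups did not overlap either, a difference taken up below, and the rises were 0.75 (SE 0.10, adjusted p = 6.88e-05) in labelled knockout and 1.504 (SE 0.10, adjusted p = 6.57e-08) in WT cells. Nob1, the endonuclease that trims the small subunit rRNA, had 29.5, 30.1 and 28.2 CPM with PDGF-BB against 18.6, 19.7 and 17.8 CPM untreated in labelled knockout and 51.3, 37.9 and 38.1 CPM with PDGF-BB against 19.9, 22.4 and 22.8 CPM untreated in WT cells. Dimt1, a dimethyltransferase of that rRNA, had 12.9, 11.96 and 11.4 CPM with PDGF-BB against 7.66, 8.83 and 7.73 CPM untreated in labelled knockout and 14.8, 14.5 and 16.8 CPM with PDGF-BB against 11.5, 9.37 and 9.95 CPM untreated in WT cells. Nat10, its acetyltransferase, had 33.3, 38.1 and 34.2 CPM with PDGF-BB against 26.3, 23.9 and 22.7 CPM untreated in labelled knockout and 54.5, 52.5 and 45.6 CPM with PDGF-BB against 29.8, 26.3 and 25.6 CPM untreated in WT cells. These 3 enzymes rose by 0.62, 0.53 and 0.52 in labelled knockout cells, and by 0.93, 0.54 and 0.88 in WT cells.

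All 10 large subunit factors rose under both labels without overlap of treated and untreated libraries, by a median of 0.76 in labelled knockout and 1.16 in WT cells. Pes1, Bop1 and Wdr12 form 1 complex that is needed to process the large subunit rRNA. Pes1 had 59.2, 54.9 and 56.9 CPM with PDGF-BB against 40.2, 43.8 and 40.7 CPM untreated in labelled knockout and 76.2, 68.7 and 62.2 CPM with PDGF-BB against 40.3, 41.96 and 42.5 CPM untreated in WT cells. Bop1 had 58.5, 60.9 and 58.04 CPM with PDGF-BB against 31.5, 32.03 and 38.6 CPM untreated in labelled knockout and 82.3, 66.7 and 67.9 CPM with PDGF-BB against 33.8, 31.98 and 32.3 CPM untreated in WT cells. Wdr12 had 28.4, 24.03 and 26.5 CPM with PDGF-BB against 15.4, 17.6 and 15.3 CPM untreated in labelled knockout and 42.2, 38.4 and 33.96 CPM with PDGF-BB against 17.6, 16.9 and 18.9 CPM untreated in WT cells. The responses of the 3 partners stood, for Pes1, at 0.45 (SE 0.078, adjusted p = 4.80e-04) in labelled knockout and 0.71 (SE 0.078, adjusted p = 4.96e-06) in WT cells, Bop1 at 0.78 in labelled knockout and 1.12 in WT cells, and Wdr12 at 0.67 in labelled knockout and 1.06 in WT cells. Differences between the 3 genes were not tested.

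Gnl3, the GTPase nucleostemin, had 66.5, 64.1 and 67.7 CPM with PDGF-BB against 26.8, 26.5 and 29.97 CPM untreated in labelled knockout and 106.5, 83.8 and 77.9 CPM with PDGF-BB against 28.9, 29.02 and 27.5 CPM untreated in WT cells. Nop2, a cytosine methyltransferase of the large subunit rRNA, had 56.4, 58.1 and 56.97 CPM with PDGF-BB against 26.2, 26.01 and 25.02 CPM untreated in labelled knockout and 86.1, 70.2 and 74.1 CPM with PDGF-BB against 27.2, 25.5 and 27.05 CPM untreated in WT cells. Noc2l had 62.3, 59.3 and 61.6 CPM with PDGF-BB against 28.2, 31.3 and 28.1 CPM untreated in labelled knockout and 91.6, 84.1 and 78.04 CPM with PDGF-BB against 36.2, 35.8 and 35.8 CPM untreated in WT cells. These 3 rose by 1.22, 1.12 and 1.04 in labelled knockout cells, the 3 rises of at least 2-fold in this role there, and by 1.61, 1.49 and 1.21 in WT cells. Rrs1, which brings ribosomal proteins to the early particle, had 38.2, 33.9 and 39.2 CPM with PDGF-BB against 18.98, 18.1 and 18.1 CPM untreated in labelled knockout and 62.8, 49.4 and 44.9 CPM with PDGF-BB against 17.3, 19.2 and 19.5 CPM untreated in WT cells. Nop16 had 25.02, 23.3 and 23.1 CPM with PDGF-BB against 14.0, 13.6 and 14.2 CPM untreated in labelled knockout and 51.2, 31.5 and 29.5 CPM with PDGF-BB against 11.2, 16.04 and 12.2 CPM untreated in WT cells. Rrs1 rose by 0.97 and 1.43 and Nop16 by 0.73 and 1.41, in labelled knockout and WT cells. Noc3l, a partner of Noc2l, had 30.7, 30.5 and 30.05 CPM with PDGF-BB against 18.8, 20.3 and 18.2 CPM untreated in labelled knockout and 41.1, 36.7 and 37.7 CPM with PDGF-BB against 20.9, 22.6 and 23.0 CPM untreated in WT cells. Rrp1b had 19.4, 16.5 and 20.2 CPM with PDGF-BB against 14.7, 10.8 and 12.1 CPM untreated in labelled knockout and 19.01, 24.1 and 26.1 CPM with PDGF-BB against 17.01, 16.3 and 15.5 CPM untreated in WT cells. Noc3l rose by 0.65 and 0.77, and Rrp1b, the smallest rise of the role in WT cells, by 0.55 and 0.47, in labelled knockout and WT cells.

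Levels of different genes were set side by side per kilobase of the exon length deposited for each gene. That length was 10012 bases for Wdr12, against 11955 exon bases in the annotation GENCODE vM21. It was 1197 against 4209 for Fbl and 1877 against 4099 for Nop56. The order below therefore depends on the length used, and levels per transcript were not measured. In untreated WT cells Npm1 led with a mean of 205 CPM per kilobase, then Ncl with 41.7, Mybbp1a with 25.1, Fbl with 17.6 and Nop10 with 16.5. The lowest were Wdr12 with 1.78, Rrp12 with 2.17 and Dimt1 with 3.08 CPM per kilobase. The SD over 3 libraries was 1.10 CPM per kilobase for Fbl and 0.948 for Nop10, so this pair did not differ beyond its spread, whereas the SDs of 7.30 for Npm1, 2.04 for Ncl and 1.14 for Mybbp1a were smaller than the gaps between those 3. With PDGF-BB, Nop56 stood at 35.3 CPM per kilobase in labelled knockout and 51.6 in WT cells, above Nop10 in both, where untreated it stood at 13.9 in labelled knockout and 13.0 in WT cells, below Nop10 in both.

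In 7 of the 41 genes the annotation (GENCODE vM21) places snoRNA genes inside the gene, 21 in all: 5 in Nop56, 4 in Nop58, 3 each in Ncl, Wdr43 and Gnl3, 2 in Tsr1 and 1 in Dkc1. Their median log2 response was 1.07 in labelled knockout and 1.49 in WT cells, and that of the other 34 genes 0.73 in labelled knockout and 0.99 in WT cells. The 7 genes ranged from 0.47 to 1.31 in labelled knockout and from 0.72 to 1.92 in WT cells. Their difference from the other 34 genes was not tested, and the snoRNAs themselves were not examined. In 5 genes a sizeable share of the exon bases lies opposite exons of a gene on the other strand, namely 32.3% in Tsr1 (Srr), 31.9% in Dimt1 (Kif2a), 20.9% in Noc2l (Samd11), 16.2% in Wdr3 (Gdap2 and Spag17) and 9.4% in Bysl (Ccnd3). The library kit keeps strand, but the strand setting of the counting is not given in the sources used here, so reads of these 5 genes and of their opposite partners may be mixed.

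The next question was whether the response differed between the labels. The difference, the labelled knockout response minus the WT response, was below 0 for 38 of the 41 genes and had a median of -0.31, against 0.01 over all genes kept. It was called for 3 genes, all lower in labelled knockout cells, and for none in the other direction, while 1.68% of all genes were called lower and 2.25% higher. The 3 were Ddx21 at -0.65 (SE 0.087, adjusted p = 0.00119), Bysl at -0.75 (SE 0.14, adjusted p = 0.0108) and Wdr43 at -0.39 (SE 0.097, adjusted p = 0.0398). Ddx21 reached 156 ± 6.54 CPM with PDGF-BB and 74.95 ± 2.90 CPM untreated in labelled knockout cells, and 199 ± 9.92 CPM with PDGF-BB and 60.2 ± 0.501 CPM untreated in WT cells (SD, n = 3 each). Bysl likewise started higher and ended lower by mean in labelled knockout cells, at 35.5 ± 0.823 CPM with PDGF-BB and 20.8 ± 2.82 CPM untreated, against 43.0 ± 4.87 CPM with PDGF-BB and 14.5 ± 0.122 CPM untreated in WT cells. Wdr43 had close untreated means, at 37.95 ± 0.973 CPM in labelled knockout and 38.5 ± 0.683 CPM in WT cells, and with PDGF-BB had 68.1 ± 0.628 CPM in labelled knockout and 91.2 ± 7.90 CPM in WT cells.

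The genes with the largest differences that were not called were Nop16 at -0.69 (adjusted p = 0.136), Nhp2 at -0.68 (adjusted p = 0.113) and Fbl at -0.64 (adjusted p = 0.107), and in treated WT cells each of these was highest in replicate 1. Without that library the differences were -0.44 for Nop16, -0.43 for Nhp2 and -0.41 for Fbl. The 3 genes on the other side of 0 were Rrp1b at 0.08, Tcof1 at 0.06 and Wdr3 at 0.02, and without that library all 3 lay below 0, at -0.04, -0.01 and -0.01, while Nop10, Npm1 and Noc4l then lay above 0. Without replicate 1 of WT cells with PDGF-BB the count of called genes was 13, all lower, against 5.23% of all genes, and the median was -0.25. The 10 added genes were Nop56 at -0.43 (adjusted p = 0.00910), Nop58, Fbl, Nhp2, Heatr1, Wdr75, Ltv1, Tsr1, Rrp12 at -0.54 (adjusted p = 0.0241) and Nop2. Without replicate 3 of WT cells with PDGF-BB the count was 11, against 2.94% of all genes called lower, and without any 1 of the other 10 libraries it was 2 or 3.

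The difference also lay below 0 for most other genes that rose with PDGF-BB. Among the 3858 genes called higher with PDGF-BB on average over both labels, the median difference was -0.18 and 77.8% lay below 0. Among the 361 of those with an average rise of at least 2-fold the median was -0.35 and 80.1% lay below 0. For the 40 ribosome biogenesis genes called higher on average the median was -0.32, and 37 of 40 (92.5%) lay below 0. The members' median thus lay close to that of the genes that rose 2-fold.

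In the library that stood apart, deviations varied with exon length over all genes kept, with a Spearman rho of -0.58 for replicate 1 of WT cells with PDGF-BB and of 0.43 and 0.53 for replicates 2 and 3. The exon length of the 41 genes ran from 1042 bases for Nhp2 to 10012 for Wdr12. Over the 41 genes, the log2 deviation of replicate 1 of WT cells with PDGF-BB from the other 2 libraries had a Spearman rho of -0.79 with exon length, and that of replicates 2 and 3 a rho of 0.74 and 0.69. Each library was set against the other 2 of its group, so the values of replicates 2 and 3 depend on replicate 1. In the treated labelled knockout libraries the rho lay between -0.030 and -0.0071. These are descriptions across genes of 1 library. The median response of the 20 genes shorter than 3338 bases was 0.80, 0.82 and 0.79 in the 3 treated labelled knockout libraries, and that of the 21 others 0.77, 0.65 and 0.69. In the treated WT libraries the medians were 1.52, 1.17 and 1.09 for the short genes and 0.88, 0.93 and 0.90 for the others. The short-gene median was thus highest in replicate 1 of the treated WT group, and over the 41 genes the rho of the difference of response with exon length was 0.33 with that library and 0.00035 without it.

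**Figure D3:**
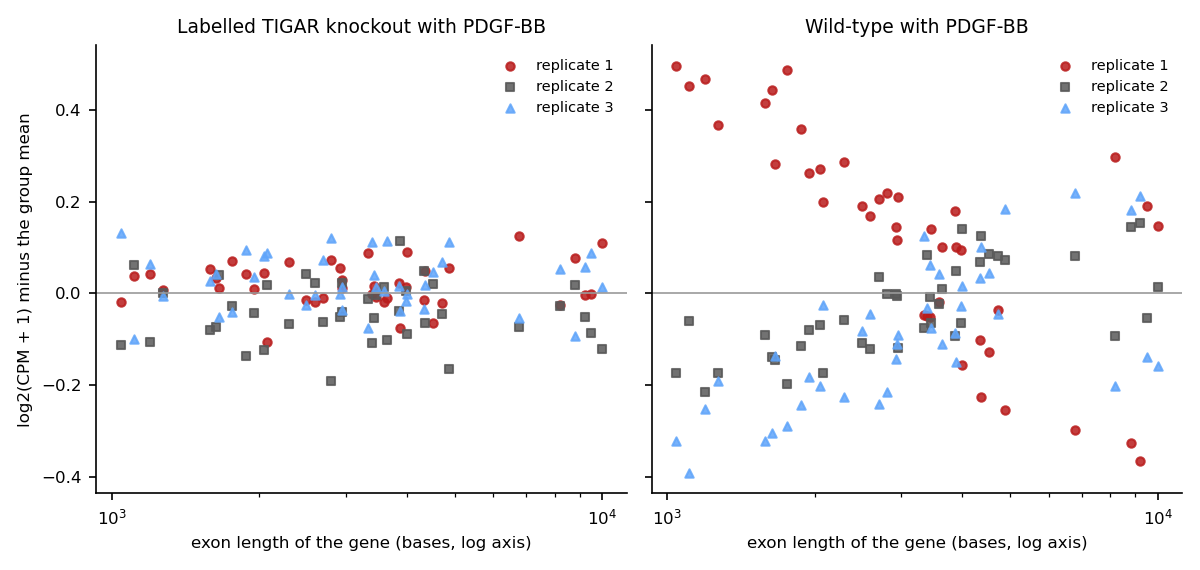
Deviation of log2(CPM + 1) from the group mean against exon length (log axis) for the 41 genes in the 3 treated libraries of each label, labelled knockout on the left and WT on the right, with 1 mark per gene and library. Labelled knockout libraries have a rho of -0.030 to -0.0071, whereas in WT cells replicate 1 falls with length (rho -0.79) and replicates 2 and 3 rise (rho 0.74 and 0.69). The rise of replicates 2 and 3 is relative to a mean that holds replicate 1.

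With PDGF-BB, 28 of the 41 genes were lower in labelled knockout than in WT cells and none was higher, while 26.6% of all genes were called lower and 10.6% higher. The median difference was -0.39, against -0.14 over all genes kept, and all 41 values lay below 0, but Nop10 lay at 0.13 without replicate 1 of WT cells with PDGF-BB, Polr1a at 0.02 without replicate 3 of those cells, and Nop10, Polr1a and Rrn3 above 0 with TMM scaling. The 3 labelled knockout libraries lay wholly below the 3 WT ones for 31 genes, where this held for 35.9% of all genes. Ratios of mean CPM, labelled knockout over WT, ran from 0.582 for Fbl to 0.980 for Rrn3, with a median of 0.747. Of all calls in this comparison 28.5% were higher, and 47.4% with TMM scaling, which moved the median of all genes to -0.05 and left 21 of the 41 genes called, all lower, with a median of -0.29. With that scaling 15.1% of all genes were called lower.

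By role, the test was passed by 3 of 4 box C/D genes, 3 of 4 H/ACA genes, 2 of 4 RNA polymerase I factors, 4 of 5 nucleolar proteins, 7 of 14 small subunit factors and 9 of 10 large subunit factors. The lowest differences were those of Fbl at -0.73 (SE 0.15, adjusted p = 0.00202), Nop16 at -0.59 (SE 0.17, adjusted p = 0.0167) and Dkc1 at -0.56 (SE 0.12, adjusted p = 0.00246). This order rests on replicate 1 of WT cells with PDGF-BB, without which Fbl was at -0.50, Nop16 at -0.35 and Dkc1 at -0.45, and the lowest were Tcof1 at -0.58 and Polr1b at -0.53. Other called genes that moved by over 1.5 times without it were Nhp2 at -0.18, Gar1 at -0.25, Bop1 at -0.18, Nop56 at -0.34, Npm1 at -0.27 and Ltv1 at -0.25. Tcof1, with 32.4, 34.4 and 35.05 CPM in labelled knockout cells with PDGF-BB, against 44.7, 51.98 and 50.5 CPM in wild-type cells with PDGF-BB, differed by -0.52 (SE 0.074, adjusted p = 1.44e-04) and showed no overlap. Ncl, with 384.5, 384.0 and 406.1 CPM in labelled knockout cells with PDGF-BB, against 693.3, 529.1 and 490.1 CPM in wild-type cells with PDGF-BB, differed by -0.53 (SE 0.10, adjusted p = 0.00142). Nop58 and Wdr12 were lower, at -0.53 and -0.52, and at -0.44 and -0.45 without replicate 1 of WT cells with PDGF-BB.

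The 13 genes not called were Rrp9, Nop10, Polr1a, Rrn3, Mybbp1a, Utp20, Heatr1, Wdr3, Noc4l, Bysl, Tsr1, Rrp12 and Rrp1b, at values between -0.38 for Rrp9 and -0.03 for Rrn3. Rrn3 had 71.1, 72.7 and 72.3 CPM in labelled knockout cells with PDGF-BB, against 72.5, 72.2 and 75.7 CPM in wild-type cells with PDGF-BB, and these overlapped. Polr1a, the largest polymerase subunit, was at -0.09 (adjusted p = 0.608) with overlapping libraries. The call of Nhp2, at -0.43 (adjusted p = 0.0489) and with overlapping libraries, was kept by 6 of 24 alternatives, and those of Gar1 and Bop1 by 14 of 24 each. In 19 of the 28 called genes the call was kept by all 24. Without replicate 1 of WT cells with PDGF-BB 32 genes were called, all lower, against 29.7% of all genes, with a median of -0.33. The calls of Nhp2 at -0.18, Gar1 at -0.25 and Bop1 at -0.18 were then lost. Calls were gained by Polr1a at -0.27 (adjusted p = 0.00563), Mybbp1a at -0.31, Utp20 at -0.33, Heatr1 at -0.30, Tsr1 at -0.22, Rrp12 at -0.34 and Rrp1b at -0.41.

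**Figure D4:**
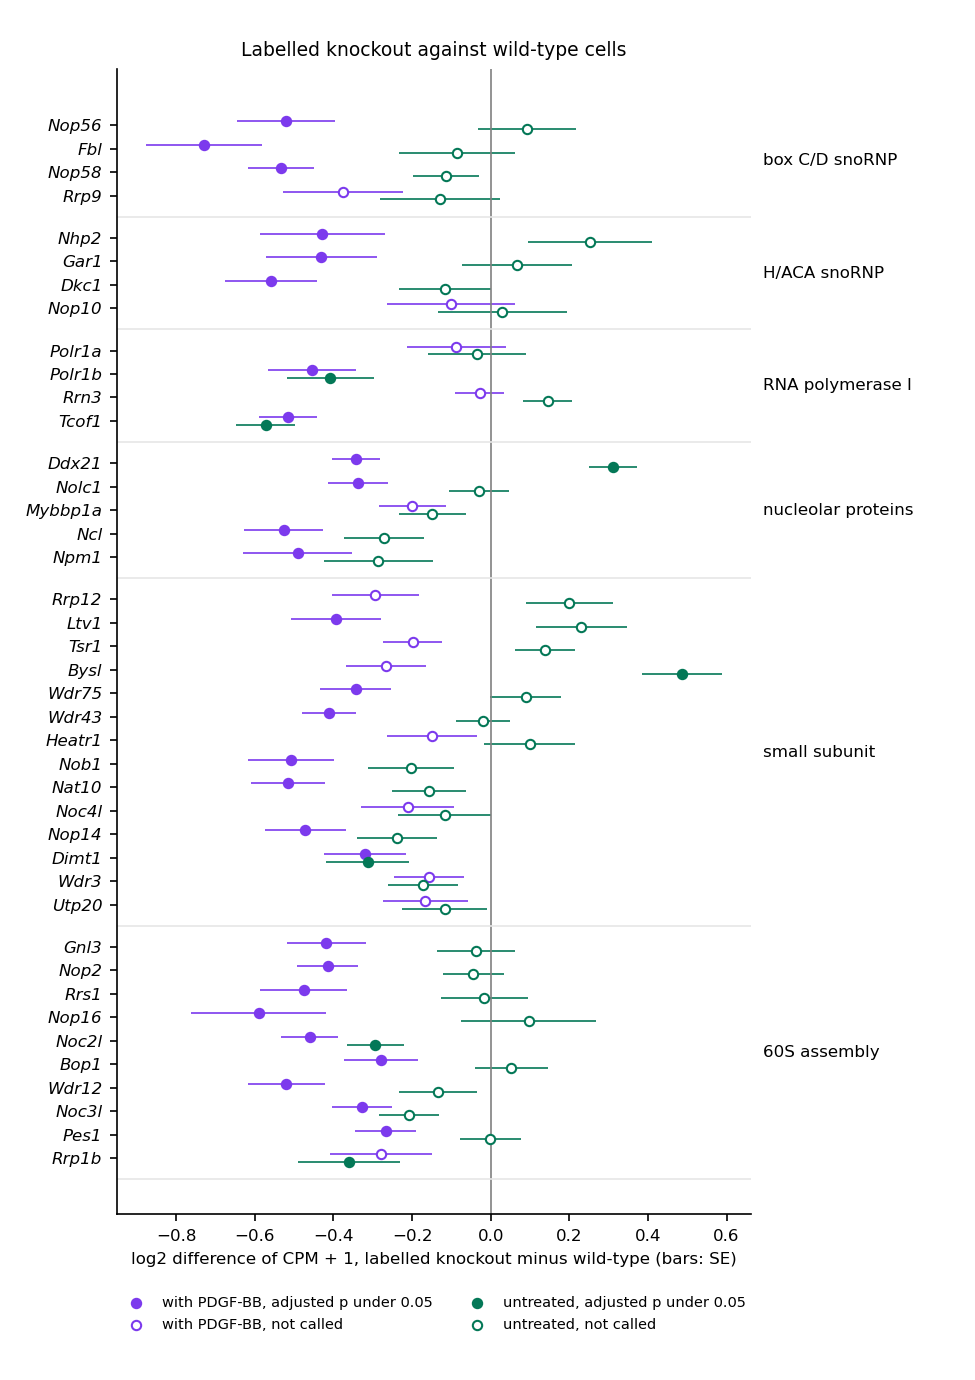
Log2 difference of CPM + 1, labelled knockout minus WT, for each gene with PDGF-BB (violet, drawn above) and untreated (green), with bars for the SE and open points for differences that were not called. With PDGF-BB all 41 points lie below 0, between -0.73 and -0.03 (3 of them lie above 0 with TMM scaling), while untreated points lie on both sides, from -0.57 for Tcof1 to 0.49 for Bysl, and the median of the untreated points moves above 0 with TMM scaling.

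Without PDGF-BB, 2 of the 41 genes were higher and 5 lower in labelled knockout than in WT cells, where 9.15% of all genes were called higher and 24.8% lower. The median was -0.04, against -0.13 over all genes kept. TMM scaling turned it to 0.09, against -0.01 over all genes kept, with 6 genes higher and 1 lower, and of all calls in this comparison 27.0% were higher, and 48.7% with TMM scaling. With that scaling 13.6% of all genes were called higher and 14.3% lower. Bysl, with 17.6, 21.8 and 22.97 CPM in untreated labelled knockout cells, against 14.4, 14.4 and 14.6 CPM in untreated wild-type cells, was higher by 0.49 (SE 0.10, adjusted p = 0.00232). Ddx21, with 72.8, 78.2 and 73.8 CPM in untreated labelled knockout cells, against 59.99, 60.8 and 59.9 CPM in untreated wild-type cells, was higher by 0.31 (SE 0.061, adjusted p = 0.00155). Tcof1, with 26.4, 26.9 and 27.5 CPM in untreated labelled knockout cells, against 38.8, 40.5 and 42.4 CPM in untreated wild-type cells, was lower, at -0.57 (SE 0.074, adjusted p = 5.87e-05). The libraries of these 3 genes did not overlap, and the 3 calls were kept by all 24 alternatives.

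The other 4 calls were Polr1b at -0.41 (adjusted p = 0.0123), Rrp1b at -0.36 (adjusted p = 0.0461), Dimt1 at -0.31 (adjusted p = 0.0343) and Noc2l at -0.29 (adjusted p = 0.00704), and each lost its call with TMM scaling and in edgeR and DESeq2 on recovered reads. Nhp2 had the third highest value, 0.25 (adjusted p = 0.243). In all, 7 genes had every labelled knockout library above every WT one, where 14.1% of all genes did, and 13 had every one below, where 40.5% did. The 34 genes not called lay between -0.29 for Npm1 and 0.25 for Nhp2. Without replicate 1 of WT cells with PDGF-BB, which enters here only through the shared estimate of the spread, 5 genes were called higher and 11 lower, where 13.2% of all genes were called higher and 36.8% lower. There were 2 called lower without replicate 3 of untreated labelled knockout cells (18.8% of all genes) or without replicate 1 of untreated WT cells (19.2%), and 3 without replicate 3 of untreated WT cells (18.7%).

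The 2 labels also differed in markers of other cell types, and their part in the differences above was not tested. Of 10 endothelial markers 9 were kept, all 9 were called higher in labelled knockout cells both with and without PDGF-BB, and their sum was 662 to 684 CPM in labelled knockout cells with PDGF-BB against 116 to 124 CPM in WT cells with PDGF-BB. Untreated, the endothelial sum was 718 to 820 CPM in labelled knockout against 151 to 161 CPM in WT cells. Of 10 macrophage markers 8 were kept, of which 7 were lower in labelled knockout cells with PDGF-BB and 8 without, and the sum was 32.2 to 35.5 CPM in labelled knockout cells against 99.4 to 143 CPM in WT cells with PDGF-BB. Untreated, the macrophage sum was 31.4 to 37.7 CPM in labelled knockout cells against 130 to 141 CPM in WT cells. The sum of the 10 smooth muscle markers was 5026 to 5169 CPM in labelled knockout and 2859 to 3197 CPM in WT cells with PDGF-BB, and 8 of the 9 kept were higher in labelled knockout cells. Untreated, it was 4276 to 6009 CPM in labelled knockout and 4335 to 4928 CPM in WT cells, and 4 of 9 were higher. None of these 3 lists held a marker at 0 in all libraries. Fibroblast markers summed to 182 to 188 CPM in labelled knockout and 271 to 318 CPM in WT cells with PDGF-BB, and Schwann cell markers, with Sox10 and Foxd3 at 0 in all libraries, to 31.3 to 32.6 CPM in labelled knockout and 57.0 to 81.0 CPM in WT cells. With PDGF-BB, adipocyte markers (Lep at 0 in all libraries) summed to 95.8 to 103 CPM in labelled knockout and 109 to 145 CPM in WT cells, and epithelial markers to 19.0 to 21.1 CPM in labelled knockout and 7.05 to 13.4 CPM in WT cells. Untreated, fibroblast markers summed to 232 to 251 CPM in labelled knockout and 311 to 321 CPM in WT cells, and Schwann cell markers to 35.2 to 41.5 CPM in labelled knockout and 75.9 to 88.0 CPM in WT cells. Untreated adipocyte markers summed to 162 to 163 CPM in labelled knockout and 256 to 267 CPM in WT cells, and epithelial markers to 16.7 to 20.2 CPM in labelled knockout and 3.97 to 5.004 CPM in WT cells. Striated muscle markers summed to 1.88 to 4.07 CPM over all libraries.

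Genes of the same pathway outside the 41 were counted in 7 lists. Over all genes kept, 17.6% were called higher with PDGF-BB in labelled knockout and 25.0% in WT cells. In the small subunit processome, 29 of 38 other genes rose in labelled knockout and 34 in WT cells, with medians of 0.48 in labelled knockout and 0.57 in WT cells and with Nol10 highest in WT cells at 1.55. Among 55 other large subunit assembly genes 44 rose in labelled knockout and 46 in WT cells, with medians of 0.53 in labelled knockout and 0.78 in WT cells. Ppan led this list at 1.45 in labelled knockout and 1.83 in WT cells, while Nop53 was called lower in both, at -0.48 in labelled knockout and -0.62 in WT cells. Of 15 late small subunit genes 10 rose in labelled knockout and 11 in WT cells, among them the assembly factor Pno1 at 0.84 in labelled knockout and 1.62 in WT cells. Of 17 other rRNA modification genes 9 rose in labelled knockout and 10 in WT cells, and of 17 genes of the exosome, which trims RNA from its 3′ end, 9 rose in labelled knockout and 12 in WT cells.

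Of the 18 other RNA polymerase I genes 6 rose in labelled knockout and 11 in WT cells, with Polr1e highest at 0.75 in labelled knockout and 1.13 in WT cells. The termination factor Ttf1 was called lower, at -0.23 in labelled knockout and -0.33 in WT cells. Cytosolic ribosomal protein genes, whose products the assembly factors handle, had the lowest share. Of 78 kept, 3 rose in labelled knockout and 19 in WT cells, with medians of 0.08 in labelled knockout and 0.33 in WT cells. Over all genes kept, 17.6% rose in labelled knockout and 25.0% in WT cells, so the WT share of this list was close to that of all genes. The lists were not counted without replicate 1 of WT cells with PDGF-BB. Rps27a was the highest ribosomal protein gene under both labels, at 0.85 in labelled knockout and 1.27 in WT cells. With PDGF-BB, labelled knockout cells were called lower than WT cells for 22 of the 38 processome genes, 34 of the 55 large subunit genes, 9 of the 15 late small subunit genes, 11 of the 17 modification genes, 10 of the 17 exosome genes, 10 of the 18 polymerase genes and 3 of the 78 ribosomal protein genes, where 26.6% of all genes were called lower. Differences in share between lists were not tested.

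**Figure D5:**
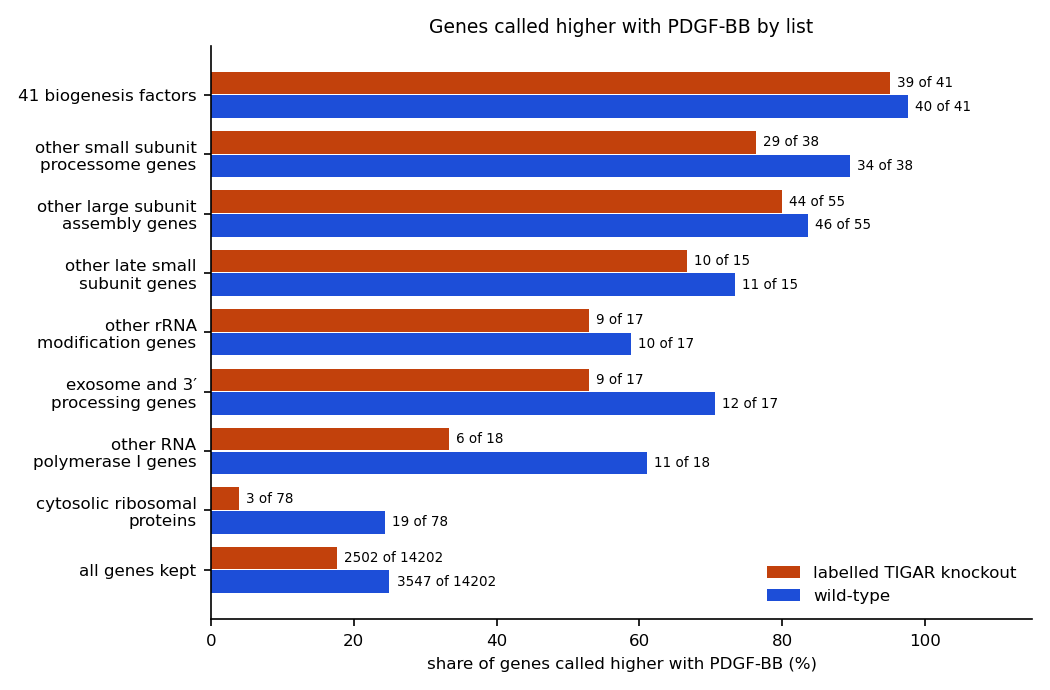
Share of genes called higher with PDGF-BB (%) in the 41 genes, in 7 other lists of the pathway and in all genes kept, with labelled knockout (orange) above WT (blue) and the counts beside the bars. The bars run from 39 and 40 of 41 for the biogenesis factors down to 3 and 19 of 78 for cytosolic ribosomal proteins, against 2502 and 3547 of 14202 genes in all.

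Myc itself had 28.8, 27.5 and 28.5 CPM with PDGF-BB against 11.3, 14.6 and 14.3 CPM untreated in labelled knockout cells. In WT cells Myc had 43.1, 41.4 and 38.3 CPM with PDGF-BB against 16.1, 14.7 and 15.2 CPM untreated. It rose by 1.03 (SE 0.097, adjusted p = 3.14e-06) in labelled knockout and by 1.36 (SE 0.097, adjusted p = 1.07e-07) in WT cells, the labelled knockout response minus the WT one was -0.33 (adjusted p = 0.215, not called), and with PDGF-BB it was lower in labelled knockout cells at -0.52 (adjusted p = 0.00119). Of the 11 genes of its network, 3 rose and 2 fell in labelled knockout and 2 rose and 4 fell in WT cells, where 17.6% of all genes rose and 24.8% fell in labelled knockout and 25.0% rose and 34.4% fell in WT cells. Network members included the antagonist Mxi1 lower at -0.60 in labelled knockout and -0.56 in WT cells.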

How the data were processed

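Poly(A) RNA of 12 libraries was sequenced after stranded library preparation, per the labels' protocols. Reads were aligned with HISAT2 to mm10 and counted with HTSeq, per the submitters' processing notes, which give no versions here; the strand setting and the handling of reads with several matches are not given in the sources used here. The deposited table is named for FPKM, but its values are CPM: each library sums to 1000000 and every value is a whole number of reads (100% within 0.001 of a read). Coordinates are on GRCm38.p6, per the file headers. Totals recovered this way were 14953807 to 21698488 reads per library, and 25008 of 55487 genes were at 0 throughout.

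Genes with a CPM of at least 1 in at least 3 of 12 libraries (14202) were fitted as log2(CPM + 1), a pseudocount of 1 that understates changes of low genes, with limma 3.58.1 in R 4.3.3 (moderated test with a mean-variance trend, 2-sided, 1 mean per group over all 4 groups). Benjamini-Hochberg adjustment ran over all 14202 genes, and genes under 0.05 were called. The 5 comparisons were PDGF-BB against untreated under each label, labelled knockout against WT with and without PDGF-BB, and the difference between the responses. The fit was planned for normalized values, and edgeR 4.0.16 and DESeq2 1.42.0 on the recovered reads served as alternatives, beside another pseudocount, other filters, TMM scaling, library weights, a replicate block and leaving out each library. The fitting code was tested on simulated data. Figures and summaries used Python 3.11.15 and matplotlib 3.10.9. The 41 genes, the pathway and marker lists and the rule for naming genes (values of every library for a set fixed by role and, in each comparison, for the 3 highest, the 3 lowest and the uncalled members; in each list the 2 highest and 2 lowest genes) were chosen with earlier results of these data known.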

Additional observations from a re-analysis of the deposited data

Results flagged for a closer look

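In 3 genes the PDGF-BB response itself differed between the labels by the test of that difference in limma. Ddx21, the nucleolar RNA helicase, had a labelled knockout response minus WT response of -0.65 (SE 0.087, adjusted p = 0.00119). All 23 alternatives called it, with values of -0.75 to -0.61. Bysl, the small subunit factor, differed by -0.75 (SE 0.14, adjusted p = 0.0108), and all 23 alternatives called it at -0.86 to -0.66. Both genes were higher in labelled knockout cells when untreated, so the difference comprises a higher start as well as a lower end by mean. Wdr43, of the processome, differed by -0.39 (SE 0.097, adjusted p = 0.0398). It was called by 11 of 23 alternatives, with adjusted p of 7.97e-05 to 0.131, and its call was lost without any 1 of 9 libraries, namely those of the labelled knockout groups and of the untreated WT group. No other member met the criteria for a closer look.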

How the results depend on the processing

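The rises with PDGF-BB were the firmest results: 38 to 40 genes rose in labelled knockout cells and 40 in WT cells when single libraries were left out, with medians of 0.73 to 0.78 and 1.05 to 1.17. Over all genes 14.4% to 24.3% were then called higher in labelled knockout cells and 21.6% to 27.4% in WT cells. With PDGF-BB, 20 to 32 genes were lower in labelled knockout than in WT cells (median -0.45 to -0.33). The share of all genes called lower there was 18.7% to 31.5%. Untreated, 2 to 5 were higher and 2 to 11 lower (median -0.087 to -0.044). Of all genes 7.60% to 13.2% were called higher untreated and 18.3% to 36.8% lower. The responses differed for 2 to 13 (median -0.37 to -0.25), where 0.831% to 5.23% of all genes were called lower. The cause of these shifts was not tested.

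TMM scaling moved the medians of the responses to 0.81 in labelled knockout and 1.22 in WT cells, and that of the difference with PDGF-BB to -0.29. It turned the untreated median to 0.085, with 6 genes higher and 1 lower, and called 5 differences of response. Of all genes 13.6% were then higher and 14.3% lower untreated, and 2.10% had a lower response and 1.84% a higher one. edgeR gave medians of 0.82, 1.29, -0.31 and a reversed 0.088 (5 higher, 1 lower), and DESeq2 0.82, 1.27, -0.29 and a reversed 0.10 (6 higher, 1 lower) with 10 differences of response. Untreated, 13.7% of all genes were called higher and 14.0% lower in edgeR, and 15.1% higher and 13.7% lower in DESeq2. For the difference of response DESeq2 called 3.49% of all genes lower and 2.88% higher. Library weights, whose estimation stopped short of its convergence tolerance, gave a WT median of 1.06, 7 genes higher and 14 lower untreated, and 30 differences of response where 15.1% of all genes were called lower. Untreated, 14.7% of all genes were called higher and 41.7% lower with those weights. Fitting only the groups compared gave 10 lower untreated, where 33.5% of all genes were called lower. No filter on low values gave 3, where 10.8% of all genes were called lower.

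Removing a trend with exon length, chosen after seeing the data, called 12 differences of response, where 3.60% of all genes were called lower and 3.53% higher. Without replicate 1 of WT cells with PDGF-BB as well, 13 were called (median -0.25), where 5.70% of all genes were called lower and 6.17% higher. The WT median was then 1.07 with 1 gene (Nop10) lower there, where 37.4% of all genes were. The median between the labels with PDGF-BB was -0.32. Untreated, 5 were higher and 13 lower, where 13.5% of all genes were called higher and 37.3% lower.

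The replicate numbers were not treated as pairs, since the labels do not say that they pair cultures. Deviations from the group means had correlations of -0.231 to 0.175 between same-numbered libraries, which does not settle whether cultures were paired. With a replicate block 39 and 40 genes rose in labelled knockout and WT cells, 28 were lower with PDGF-BB, 2 were higher and 3 lower untreated, and 2 differences of response were called. Of all genes 15.7% and 23.6% then rose, and 24.6% were lower with PDGF-BB. Untreated, 8.59% of all genes were higher and 23.0% lower, and 0.725% had a lower response and 0.880% a higher one.

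There were 3 libraries per group with at least 14953807 reads each, and none of the 41 genes was near 0. How far depth or the number of libraries limits these values was not tested.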
